A study of Homo sapiens with 18 samples.

Results

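The levels of *RAG1*, *RAG2* and *DNTT* were examined in RNA-seq of 3 B-cell precursor leukemia cell lines in which *SOX11* had been silenced. *RAG1* and *RAG2* encode the subunits of the V(D)J recombinase, and *DNTT* encodes terminal deoxynucleotidyl transferase (TdT). The 3 genes were chosen by name from the 26941 genes of the count tables. A gene with several RefSeq transcripts was represented by the transcript that held most counts in all. The lines, REH, 697 and RCH-ACV, are established in culture. Each line was nucleofected with 300 nM of *SOX11* siRNA or of a control siRNA that is not specific for a gene, and total RNA was taken after 48 h. Each of the 6 groups held 3 biological replicates, and the cells of every group were nucleofected. Each group is a model of 1 established line, so leukemia subtype, cell line and any batch in which a line was handled cannot be told apart. The questions were how high the 3 genes stood in each line with control siRNA and whether *SOX11* siRNA changed them.

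V(D)J recombination assembles the variable regions of immunoglobulin and T-cell receptor genes in lymphoid precursors. RAG1, which holds the catalytic site, and RAG2, which binds a histone mark of active chromatin, cut DNA beside the gene segments, and the ends are then joined by the non-homologous end-joining factors. TdT adds nucleotides without a template to the opened ends, and nuclear TdT is a standard marker of precursor B and T cells and of the leukemias that arise from them. *RAG1* and *RAG2* lie next to each other in opposite orientation and are controlled in common during lymphocyte development.

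In hg19, the genome build of the tables, *RAG1* (NM_000448) lies on the plus strand of chromosome 11. Its Ensembl canonical transcript runs from 36589557 to 36601312 in 2 exons. *RAG2* (NM_001243786) lies on the minus strand of the same chromosome, where its canonical transcript runs from 36613493 to 36619786, also in 2 exons. *DNTT* (NM_004088) lies on the plus strand of chromosome 10, and its canonical transcript runs from 98064191 to 98098321 in 11 exons. The other transcripts of *RAG2* held 94.8% to 98.7% of the counts of the transcript kept, and the other transcript of *DNTT* 100.0%, so transcripts of a gene could not be told apart. Over all annotated transcripts the exons of *RAG2* share 588 bases with those of *RAG1* on the other strand, whereas the canonical transcripts share 0 bases. The libraries were stranded, but the strand setting of the counting is not given in the sources used here.

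The promoter windows of *RAG2* and *DNTT* are shown as context for the effect of silencing *SOX11*, a transcription factor. Each window holds the 250 bases before and 50 bases from the start of the canonical transcript, read from hg19 on the strand of the gene, and capitals mark every match to the E-box word CANNTG, the word bound by E proteins and other basic helix-loop-helix factors. The windows are chr11:36619737-36620036 on the minus strand for *RAG2* and chr10:98063941-98064240 on the plus strand for *DNTT*.
RAG2: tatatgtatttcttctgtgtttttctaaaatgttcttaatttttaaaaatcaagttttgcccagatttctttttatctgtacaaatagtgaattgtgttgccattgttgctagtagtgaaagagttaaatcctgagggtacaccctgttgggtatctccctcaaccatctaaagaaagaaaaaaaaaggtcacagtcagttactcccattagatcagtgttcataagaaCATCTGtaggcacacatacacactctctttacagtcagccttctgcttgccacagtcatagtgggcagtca
DNTT: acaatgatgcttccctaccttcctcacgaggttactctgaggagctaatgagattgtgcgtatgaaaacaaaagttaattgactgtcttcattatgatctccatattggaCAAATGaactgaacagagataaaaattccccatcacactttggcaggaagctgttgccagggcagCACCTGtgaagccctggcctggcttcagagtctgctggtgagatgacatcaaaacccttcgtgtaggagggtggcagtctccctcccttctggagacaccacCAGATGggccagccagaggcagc
Neither window is rich in CpG. The *RAG2* window held 0 CpG and 36.7% G or C, and the *DNTT* window 3 CpG and 49.3%. The medians over the promoters of 19869 genes were 23 CpG and 63.7%.

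The words of several factors were then looked for on both strands of the same windows. The E-box word was found at 1 place in the *RAG2* window and 3 in the *DNTT* window, and 63.7% of all promoters hold it. Of the words bound by SOX factors, ACAAAG, which 12.3% of promoters hold, was found in neither window. ACAATG, which 7.5% of promoters hold, was found once each in the *RAG2* and *DNTT* windows. Neither window held the FOXO word TGTTTA (8.25% of promoters), the Ikaros word TGGGAA (22.2%), the RUNX word TGTGGT (10.7%), the LEF1/TCF word CTTTGA (10.4%), the ETS word CCGGAA (22.8%) or the TATA word TATAAA (9.63%). These are matches of letters only and say nothing of binding.

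The samples held 7039594 to 16592492 counts, and counts of the 3 genes lay between 809 and 29791, far above the 3 counts taken as the smallest number that shows a gene (0.181 to 0.426 CPM, counting error only). CPM are counts scaled to library size after TMM normalization, set here on 1 scale for the 18 samples. *SOX11* itself fell with its siRNA in REH (log2 fold change -0.83), 697 (-0.91) and RCH-ACV (-0.67), with an edgeR adjusted p of at most 0.000233. The summed level of 8 B-lineage marker genes was 1310 to 3500 CPM, whereas 8 T-lineage markers summed to at most 1.04 CPM and 8 myeloid markers to 4.05 to 35.2 CPM. *VPREB1*, the surrogate light chain gene among the B-lineage markers, was at 0 to 0.095 CPM in REH with control siRNA. No pair of replicates repeated a library. Compared by chi-square per degree of freedom, replicates differed by 1.28 to 2.20, except for the pairs that held replicate 1 of 697 with control siRNA (4.13 and 4.97), replicate 3 of 697 with *SOX11* siRNA (3.45 and 4.54) or replicate 3 of RCH-ACV with *SOX11* siRNA (3.32 and 4.29). The results of the 3 genes are given with and without these libraries.

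With control siRNA, *RAG1* covered a wider range over the lines than *RAG2* or *DNTT*. It was highest in REH, at 1826, 1826 and 1789 CPM in replicates 1 to 3, where it ranked 13 of 26941 genes by CPM. In RCH-ACV it was at 867.1, 858.1 and 890.2 CPM (rank 76), and in 697 at 247.8, 226.1 and 205.7 CPM (rank 919). The 3 lines did not overlap, and the share of all genes with such groups was not computed. *RAG1* was 7.95-fold higher in REH than in 697 (log2 difference 2.99, 95% interval 2.88 to 3.10, edgeR adjusted p = 3.31e-19) and 2.06-fold higher in REH than in RCH-ACV (1.04, 0.948 to 1.14, adjusted p = 3.92e-13). In 697 it was 26.0% of the RCH-ACV level (-1.95, -2.05 to -1.84, adjusted p = 4.17e-16). Without replicate 1 of 697 the log2 difference of *RAG1* between REH and 697 was 3.06, and that between 697 and RCH-ACV -2.02.

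*RAG2*, the partner of *RAG1* in the recombinase, was in the same order with smaller differences. Its levels were 247.3, 222.6 and 226.3 CPM in REH, 199.8, 209.0 and 207.1 CPM in RCH-ACV, and 129.0, 118.8 and 113.7 CPM in 697. REH was 1.91-fold higher than 697 (log2 difference 0.93, 0.818 to 1.05, edgeR adjusted p = 2.47e-11), and 697 was at 58.7% of RCH-ACV (-0.77, adjusted p = 1.02e-09). Without control replicate 1 of 697 these log2 differences of *RAG2* were 0.99 and -0.82. REH and RCH-ACV were neighbours in this order and differed by 1.12-fold (0.16, 0.0557 to 0.274, adjusted p = 0.00832). Without replicate 1 of REH, the highest of its group, that difference was 0.12 with an adjusted p of 0.0631.

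*DNTT* followed the opposite order. It was highest in 697 (2920, 2613 and 2636 CPM), next in RCH-ACV (2369, 2483 and 2567 CPM) and lowest in REH (1375, 1358 and 1364 CPM), and it ranked 10, 12 and 22 of 26941 genes. The REH level was 49.8% of that in 697 (log2 difference -1.01, -1.09 to -0.919, edgeR adjusted p = 1.12e-13) and 54.8% of that in RCH-ACV (-0.87, -0.956 to -0.783, adjusted p = 1.27e-12). The 697 level was 1.10-fold that of RCH-ACV (0.14, 0.0508 to 0.222, adjusted p = 0.00704). Without replicate 1 of 697 the last difference was 0.085 (adjusted p = 0.0128), and that between REH and 697 was -0.95. The call between 697 and RCH-ACV was lost without replicate 1 of RCH-ACV (0.11, adjusted p = 0.0554) and with scaling by library size alone (0.075, adjusted p = 0.0571), where the median of all genes was -0.0746 against -0.0125 with TMM.

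All 3 genes thus passed the test in each pair of lines. The lines differed in most genes, however, since 76.3% of 13686 genes passed between REH and 697, 73.9% between REH and RCH-ACV and 64.2% between 697 and RCH-ACV. The 3 pairs share their samples. An exact permutation test of each pair for each gene gave p = 0.1 (two-sided), the smallest that 3 samples against 3 allow.

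**Figure D1:**
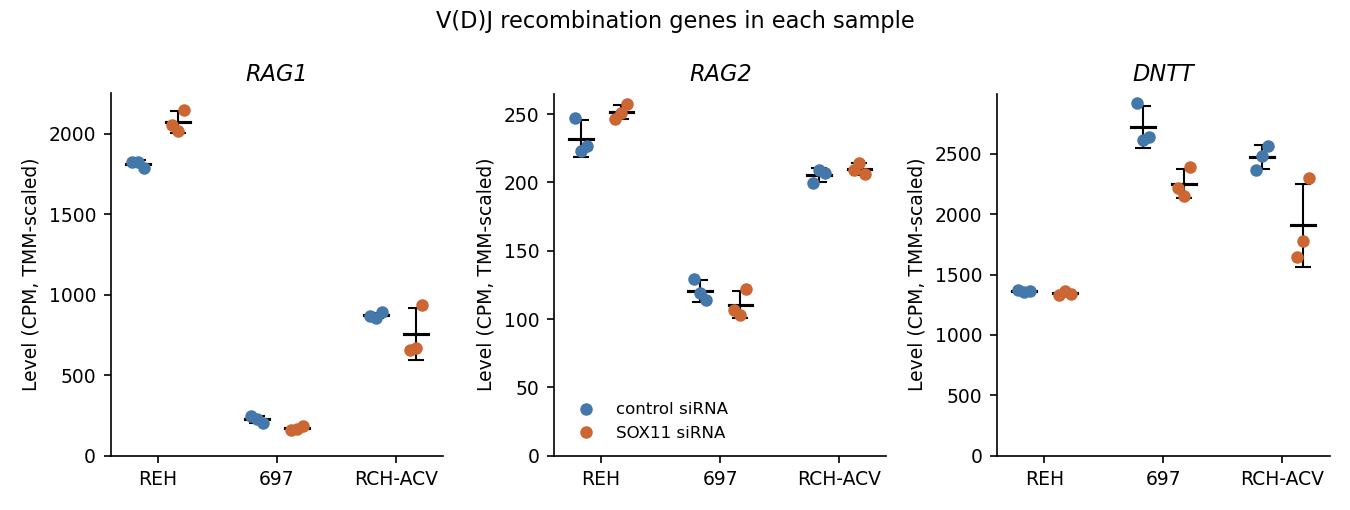
Level of *RAG1*, *RAG2* and *DNTT* (y axis, CPM on a linear axis from 0) in each sample of REH, 697 and RCH-ACV (x axis). Points are samples with control siRNA (blue) or *SOX11* siRNA (orange), and bars give the mean and SD of 3 samples. *RAG1* lay between 1789 and 2151 CPM in REH and between 161.0 and 247.8 CPM in 697, while *DNTT* was lowest in REH.

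Divided by the length of the canonical transcript (RPKM, which is CPM per kilobase), *DNTT* was the highest of the 3 genes in each line with control siRNA. Its mean level was 706 RPKM ± 4.61 in REH, 1408 RPKM ± 88.5 in 697 and 1279 RPKM ± 51.5 in RCH-ACV (SD, n = 3 each). *RAG1* was at 275 RPKM ± 3.27 in REH, 34.4 RPKM ± 3.20 in 697 and 132 RPKM ± 2.51 in RCH-ACV. *RAG2* was at 97.2 RPKM ± 5.58, 50.5 RPKM ± 3.27 and 86.0 RPKM ± 2.02. Per length, *RAG1* was therefore above *RAG2* in REH and RCH-ACV and below it in 697.

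The ratio of *RAG1* to *RAG2* needs no library scaling. With control siRNA there were 7.83 ± 0.415 *RAG1* counts per *RAG2* count in REH, 4.25 ± 0.125 in RCH-ACV and 1.88 ± 0.0594 in 697 (SD, n = 3 each), or 2.84, 1.54 and 0.681 per kilobase. The ranges of the 3 lines did not overlap (two-sided exact permutation test on the log2 ratio, p = 0.1 for each pair, the smallest possible). With *SOX11* siRNA the ratio was 8.24 ± 0.182 in REH, 3.61 ± 0.827 in RCH-ACV and 1.55 ± 0.0526 in 697. In 697 the 3 ratios with *SOX11* siRNA (1.51, 1.61 and 1.52) lay below the 3 with control siRNA (1.92, 1.90 and 1.81, p = 0.1 by the exact permutation test). In the other lines the ranges of the siRNA groups overlapped (p = 0.2 in REH and 0.4 in RCH-ACV, exact permutation test), and in RCH-ACV replicate 3 (4.56) stood above replicates 1 and 2 (3.15 and 3.12) with *SOX11* siRNA.

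**Figure D2:**
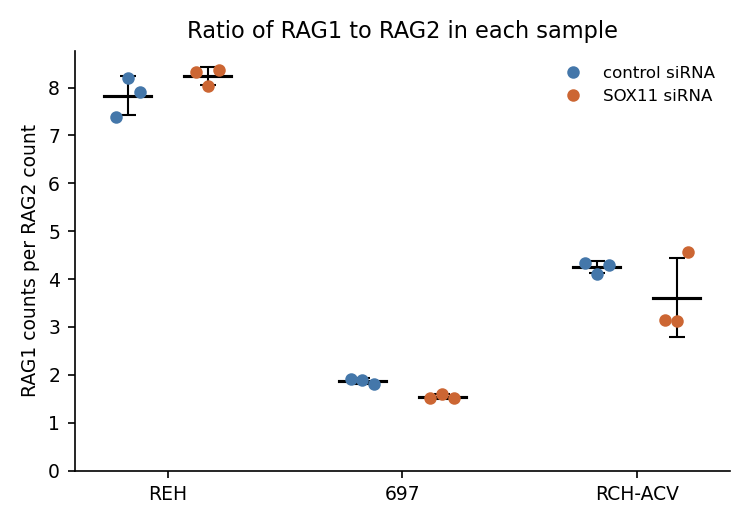
*RAG1* counts per *RAG2* count (y axis, linear from 0) in each sample of the 3 lines (x axis), with control siRNA in blue and *SOX11* siRNA in orange. Bars are the mean and SD of 3 samples. The ratio lay at 7.38 to 8.36 in REH and 1.51 to 1.92 in 697, and in RCH-ACV the third replicate with *SOX11* siRNA stood above all other samples of that line.

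*SOX11* siRNA was followed by a higher level of *RAG1* in REH. *RAG1* was at 2054, 2015 and 2151 CPM with *SOX11* siRNA, and all 3 values lay above the 1789 to 1826 CPM of the controls. How many of all genes separate in this way was not computed. The rise was 14.7% (log2 fold change 0.20, standard error 0.028, edgeR adjusted p = 5.64e-05), and it passed the threshold of 0.05 with each of the 6 REH samples left out in turn. In a fit over all 18 samples the same contrast gave 0.19 with an adjusted p of 0.324. *RAG2* was at 246.7, 250.9 and 257.2 CPM against control values of 222.6 to 247.3 CPM, and the groups overlapped (0.12, 95% interval 0.0379 to 0.206, adjusted p = 0.0938). Without replicate 1 of the controls the value for *RAG2* was 0.17 (adjusted p = 0.0143). *DNTT* was at 1327, 1364 and 1339 CPM, which overlapped the controls at 1358 to 1375 CPM (-0.019, -0.0754 to 0.0380, adjusted p = 0.801). Thus 1 of the 3 genes passed in REH, upwards, where 4.65% of 12787 genes passed and 2.64% passed upwards. The summed B-lineage markers also stood higher with *SOX11* siRNA in REH, at 3440 to 3500 CPM against 3020 to 3090 CPM, with 2 of the 7 tested markers called higher. The mean of *MME* alone went from 1133 to 1444 CPM, whereas *CD22* and *IGLL1* were at log2 fold changes of 0.027 and 0.031 and were not called. The summed myeloid markers were lower, at 14.1 to 16.7 CPM against 18.1 to 20.0 CPM. Of these, 1 of 3 tested markers was called lower, where 2.02% of all genes passed downwards. It was *MPO*, whose mean went from 13.54 to 7.90 CPM. *CD68* and *ITGAM* were at log2 fold changes of 0.51 and -0.20 and were not called, so the list did not move as 1. The part of the B-lineage and myeloid markers in the result was not tested.

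In 697 both *RAG1* and *DNTT* fell. *RAG1* was at 161.0, 165.8 and 184.8 CPM with *SOX11* siRNA, below the 205.7 to 247.8 CPM of the controls, a fall of 24.8% (log2 fold change -0.41, standard error 0.070, edgeR adjusted p = 0.0323). *DNTT* was at 2219, 2152 and 2391 CPM against 2613 to 2920 CPM, which is 82.7% of the control level (-0.27, standard error 0.045, adjusted p = 0.0284). For both genes the groups did not overlap (p = 0.1 by the exact permutation test, the smallest possible). The share of all genes with such groups was not computed. *RAG2* was at 106.4, 103.3 and 121.9 CPM against 113.7 to 129.0 CPM, and the groups overlapped (-0.13, -0.284 to 0.0302, adjusted p = 0.729). Thus 2 of the 3 genes passed in 697, both downwards, where 0.559% of 12169 genes passed and 0.477% passed downwards. The summed B-lineage markers of 697 were at 1400 to 1530 CPM with *SOX11* siRNA against 1450 to 1620 CPM, with 0 of 8 called.

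The 2 calls in 697 rested on few samples. The adjusted p of *RAG1* was 0.246 without replicate 1 with *SOX11* siRNA, 0.218 without replicate 2, and 0.149 without control replicate 2. That of *DNTT* was 0.233 and 0.207 without the same *SOX11* siRNA replicates, and 0.0663 and 0.0737 without control replicates 2 and 3. The log2 fold changes stayed between -0.47 and -0.34 for *RAG1* and between -0.31 and -0.23 for *DNTT*. The libraries that stood apart in 697, control replicate 1 and *SOX11* siRNA replicate 3, held the highest level of all 3 genes in their groups. Without both, *RAG1* was at -0.40 (adjusted p = 0.000483), *DNTT* at -0.26 (2.20e-05) and *RAG2* at -0.15 (0.321), in a fit where 1.62% of 12187 genes passed.

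In RCH-ACV *DNTT* fell and *RAG1* depended on 1 library. *DNTT* was at 1647, 1782 and 2299 CPM with *SOX11* siRNA, below the 2369 to 2567 CPM of the controls, a fall of 22.8% (log2 fold change -0.37, standard error 0.078, edgeR adjusted p = 0.00689). *RAG1* was at 657.7 and 667.6 CPM in replicates 1 and 2 and at 939.2 CPM in replicate 3, against 858.1 to 890.2 CPM in the controls. Replicate 3 was thus above all controls and the other replicates below them (-0.21, -0.398 to -0.0221, adjusted p = 0.171). *RAG2* was at 209.0, 214.3 and 205.8 CPM against 199.8 to 209.0 CPM (0.033, -0.0580 to 0.123, adjusted p = 0.702), and the groups overlapped. Thus 1 of the 3 genes passed in RCH-ACV, downwards, where 7.64% of 12963 genes passed and 3.97% passed downwards. Its summed B-lineage markers were at 1420 to 1550 CPM with *SOX11* siRNA against 1310 to 1400 CPM. Of these markers 3 of 8 were called higher, where 3.68% of all genes passed upwards, and their part was not tested.

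The library with 939.2 CPM of *RAG1*, replicate 3 of RCH-ACV with *SOX11* siRNA, also had the highest *DNTT* level of its group, and its *SOX11* level (86.79 CPM) was near that of replicates 1 and 2 (81.58 and 78.80 CPM). Without it, *RAG1* was at -0.39 (edgeR adjusted p = 1.22e-10), *DNTT* at -0.52 (1.22e-12) and *RAG2* at 0.049 (0.420). In that fit 19.2% of 13088 genes passed. The call of *DNTT* was lost without control replicate 2 (-0.37, adjusted p = 0.0615) and with the Wald test of DESeq2 (adjusted p = 0.180).

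By the exact permutation test on log2 CPM in each line (two-sided), *RAG1* in REH, *RAG1* and *DNTT* in 697 and *DNTT* in RCH-ACV had p = 0.1, the smallest that 3 samples against 3 allow. The other 5 exact permutation tests of the 3 genes gave p = 0.2 to 0.4.

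**Figure D3:**
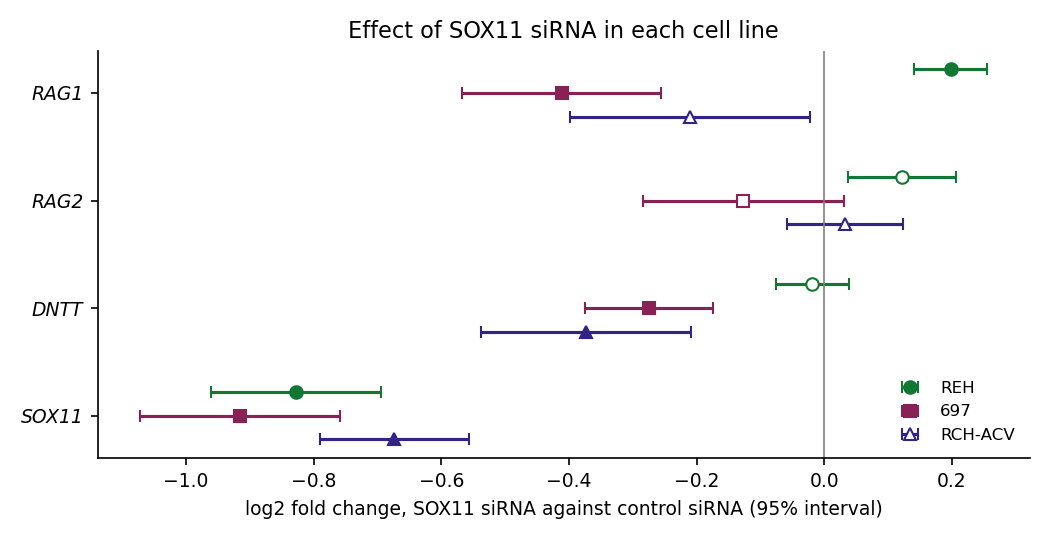
Log2 fold change of *RAG1*, *RAG2*, *DNTT* and *SOX11* (y axis) with *SOX11* siRNA against control siRNA (x axis) in REH (green circles), 697 (wine squares) and RCH-ACV (indigo triangles). Bars are 95% intervals from edgeR, 3 samples per group, and filled symbols passed an adjusted p of 0.05. *RAG1* was higher in REH and lower in 697. The interval of *RAG2* in REH (0.0379 to 0.206) lay wholly above 0 and none lay wholly below 0, and *RAG2* passed in no line.

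The effect of *SOX11* siRNA on *RAG1* differed between the lines (edgeR interaction test over the 18 samples, adjusted p = 0.0313, where 0.727% of 14026 genes passed). The effect was 0.60 higher on the log2 scale in REH than in 697 (standard error 0.126, adjusted p = 0.0310), and 40 genes, 0.285%, passed that contrast. The effect in REH minus that in RCH-ACV was 0.40 (adjusted p = 0.142, 0.713% of genes passed), and that in 697 minus RCH-ACV was -0.20 (adjusted p = 0.808, 0.0998% of genes passed). The interaction of *RAG1* did not pass without any single REH library (adjusted p 0.0553 to 0.118), without *SOX11* siRNA replicate 1 or 2 or control replicate 2 of 697 (0.0555 to 0.0797), or without any single control of RCH-ACV (0.0516 to 0.0575). Without *SOX11* siRNA replicate 3 of RCH-ACV it was 4.96e-06.

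For *DNTT* and *RAG2* the interaction did not pass (adjusted p = 0.239 and 0.382). Without *SOX11* siRNA replicate 3 of RCH-ACV that of *DNTT* was 0.000216. In a fit with 1 effect of the siRNA shared by the 3 lines, *DNTT* fell by 14.4% (log2 fold change -0.22, standard error 0.049, adjusted p = 0.00349), and it passed with each of the 18 samples left out in turn. *RAG1* (-0.12, adjusted p = 0.337) and *RAG2* (0.019, -0.0567 to 0.0950, adjusted p = 0.826) did not pass. Of 14026 genes, 9.02% passed this test and 5.28% passed it downwards.

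The other genes of the pathway were described from lists of 71 genes, which also hold 6 genes of later antibody diversification and 6 neighbours of the RAG genes and *DNTT* on the chromosome. In REH 4 of the 67 tested genes were called higher and 1 lower, in 697 0 of 68 higher and 2 lower, and in RCH-ACV 5 of 67 higher and 7 lower. Of all genes tested, REH had 2.64% higher and 2.02% lower, 697 0.0822% higher and 0.477% lower, and RCH-ACV 3.68% higher and 3.97% lower. The medians of the log2 fold changes were 0.034, -0.017 and -0.029, against -0.0023, -0.0035 and 0.0051 over all genes tested in REH, 697 and RCH-ACV. Without replicate 3 of RCH-ACV with *SOX11* siRNA, 10 were higher and 19 lower in that line, in a fit where 19.2% of all genes passed. Without both libraries that stood apart in 697, 4 were lower and 0 higher there, in a fit where 1.62% of all genes passed.

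Among the 13 genes of end joining, *LIG4*, which encodes the ligase that seals the broken ends, rose with *SOX11* siRNA in REH (log2 fold change 0.41, edgeR adjusted p = 1.02e-06) and RCH-ACV (0.37, adjusted p = 0.00175). In 697 it was at 0.32 (adjusted p = 0.343). With 1 effect for the 3 lines it was at 0.37 (adjusted p = 3.23e-07), and it passed with each of the 18 samples left out in turn. *LIG4* was also higher in REH with control siRNA, at 34.0 RPKM ± 1.52 against 9.55 RPKM ± 0.640 in 697 and 13.5 RPKM ± 0.304 in RCH-ACV (SD, n = 3 each). *XRCC5*, which encodes the Ku80 subunit that binds DNA ends, fell in RCH-ACV (-0.14, adjusted p = 0.0107), a call lost without *SOX11* siRNA replicate 2 or control replicate 1 or 2 (0.0601 to 0.0832). No other gene of end joining passed in a line with all samples. Without *SOX11* siRNA replicate 3 of RCH-ACV, *PAXX* (0.41, adjusted p = 0.00482) and *POLM* (0.35, 0.00422) were among those that passed there.

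The cofactors of cutting, *HMGB1* and *HMGB2*, which bend DNA for the recombinase, passed in no line. Of the 8 genes of the response to breaks, 1 passed in RCH-ACV with all samples, where 7.64% of all genes passed. Without *SOX11* siRNA replicate 3, 1 was higher and 4 lower there, in a fit where 19.2% of all genes passed. *MDC1*, which encodes a scaffold protein at breaks, passed in RCH-ACV (0.17, adjusted p = 0.0312), and it passed there with 1 of 6 samples left out, *SOX11* siRNA replicate 3. Of 8 genes for protein partners of RAG and TdT, the nuclear import gene *KPNA2* passed in RCH-ACV (-0.14, adjusted p = 0.0383), again with 1 of 6 samples left out, the same replicate. *MSH6*, a mismatch repair gene used in later diversification of antibodies, rose in RCH-ACV (0.20, adjusted p = 0.0156), a call lost without *SOX11* siRNA replicate 1 or control replicate 1 or 3 (0.0587 to 0.110).

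The other DNA polymerases of the TdT family, *POLM* and *POLL*, were far below *DNTT* per length. *POLM* was at 11.5 RPKM ± 0.596 in REH, 6.83 RPKM ± 1.03 in 697 and 8.12 RPKM ± 0.0989 in RCH-ACV with control siRNA (SD, n = 3 each). *POLL* was at 6.14 RPKM ± 0.498 in 697 and 3.04 RPKM ± 0.172 in RCH-ACV, and its CPM in REH lay at 0 to 0.130, at or under the level of 3 counts. Neither passed the siRNA test in a line with all samples.

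**Figure D4:**
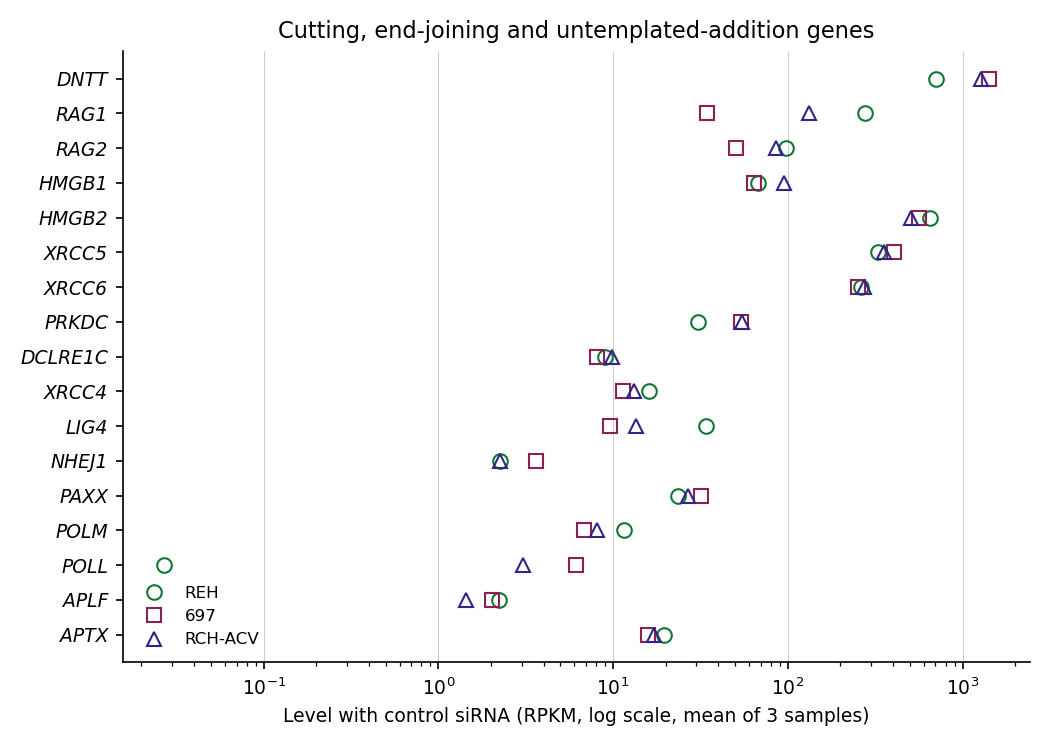
Mean level with control siRNA (x axis, RPKM on a log scale, 3 samples per line) of *DNTT*, *RAG1*, *RAG2*, their cutting cofactors and genes of end joining (y axis) in REH (green circles), 697 (wine squares) and RCH-ACV (indigo triangles). *DNTT* was at 706 to 1408 RPKM, *RAG1* spread over 34.4 to 275 RPKM, and *POLL* in REH lay near 0.

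Of 28 genes listed as transcription regulators of *RAG1*, *RAG2* or *DNTT*, 27, 26 and 26 were tested in REH, 697 and RCH-ACV. Called were 3 higher and 1 lower in REH (2.64% and 2.02% of all genes), 2 lower in 697 (0.477%), and 2 higher and 5 lower in RCH-ACV (3.68% and 3.97%). Without *SOX11* siRNA replicate 3 of RCH-ACV 4 were higher and 12 lower there, where 19.2% of all genes passed. In REH *FOXO1*, an activator of the RAG genes in B-cell precursors, was at 0.14 (edgeR adjusted p = 0.0480). It did not pass when any REH sample was left out (0.0533 to 0.229). *TCF12*, which encodes an E protein, rose (0.20, adjusted p = 0.00100), as did *BACH2*, a repressor gene of the B lineage (0.24, adjusted p = 0.00189), although neither passed in 1 fit over the 18 samples (adjusted p = 0.113 and 0.148). In RCH-ACV without *SOX11* siRNA replicate 3, *FOXO1* (-0.20, adjusted p = 0.00836), *TCF12* (-0.11, 0.0471) and *BACH2* (-0.23, 0.00337) were among those that passed downwards. The part of these regulators in the levels of *RAG1* was not tested. In 697, where 0.559% of all genes passed, none of *FOXO1*, *TCF12* and *BACH2* passed. There *FOXO1* was at -0.083 (adjusted p = 0.918), *TCF12* at 0.032 (0.970) and *BACH2* at -0.16 (0.693). *EBF1*, which encodes a factor needed for B-lineage commitment, fell in REH (-0.13, adjusted p = 0.0294) and in 697 (-0.34, adjusted p = 0.0311), and was at -0.17 in RCH-ACV (adjusted p = 0.0570), or -0.25 without *SOX11* siRNA replicate 3 (2.73e-06).

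With 1 effect for the 3 lines *EBF1* was at -0.21 (adjusted p = 0.000254). The call of *EBF1* in REH passed with 1 of 6 samples left out (*SOX11* siRNA replicate 3), and that in 697 with 2 of 6 (control replicates 1 and 3). *ERG*, an ETS-family gene, fell in 697 (-0.51, adjusted p = 0.0371) and RCH-ACV (-0.52, adjusted p = 0.00162) and was at -0.046 in REH (adjusted p = 0.638). Its call in 697 passed with 1 of 6 samples left out, *SOX11* siRNA replicate 3.

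In RCH-ACV *IKZF1*, which encodes Ikaros (-0.31, adjusted p = 0.000508), *MYB*, a progenitor transcription factor gene (-0.25, adjusted p = 0.00422), *SATB1*, a chromatin organiser gene (-0.60, adjusted p = 0.000253), and *ZNF608*, a zinc finger gene (-0.33, adjusted p = 0.0113), also fell. *RUNX1* (0.25, adjusted p = 0.00114) and *BCL11A* (0.28, adjusted p = 0.00362), both encoding transcription factors of early lymphoid cells, rose. The call of *ZNF608* was lost without *SOX11* siRNA replicate 1 or 2 or control replicate 1 or 2 (0.0679 to 0.0855). Those of *IKZF1*, *MYB*, *SATB1*, *RUNX1*, *BCL11A* and *ERG* in RCH-ACV passed with each of the 6 samples left out. The effects on *IKZF1* and *SATB1* differed between the lines (interaction, adjusted p = 0.0126 and 0.00107), with log2 fold changes of 0.073 and -0.085 in REH and -0.15 and 0.029 in 697. The interaction of *SATB1* passed with each of the 18 samples left out, whereas that of *IKZF1* did not pass without replicate 3 of either siRNA in REH or *SOX11* siRNA replicate 2 of RCH-ACV (0.0577 to 0.0631), nor with a replicate block (0.126).

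**Figure D5:**
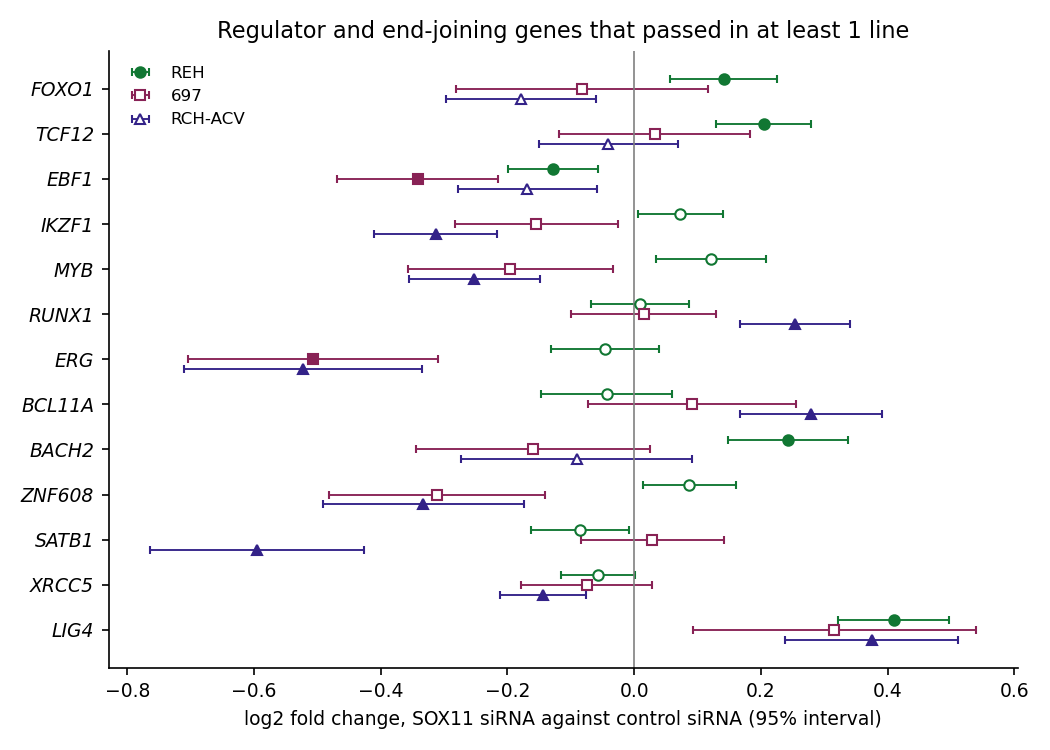
Log2 fold change with *SOX11* siRNA against control siRNA (x axis) of the regulator and end-joining genes that passed in at least 1 line (y axis), with symbols and 95% intervals as in the plot of *RAG1*, *RAG2*, *DNTT* and *SOX11*. *LIG4* was above 0 in each line, and *ERG* was at -0.51 in 697 and -0.52 in RCH-ACV.

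The regulators also differed between the lines with control siRNA. *SPI1*, which encodes PU.1, was at 34.1 to 37.8 CPM in REH, 19.6 to 25.0 CPM in RCH-ACV and 0 to 0.246 CPM in 697. *IKZF3*, which encodes Aiolos, was at 45.8 to 50.4 CPM in 697, 0.777 to 1.24 CPM in REH and 0 to 0.130 CPM in RCH-ACV. *ETS1* was higher in REH than in RCH-ACV (log2 difference 2.00, edgeR adjusted p = 1.04e-15), and *FOXP1* higher in 697 than in RCH-ACV (1.66, adjusted p = 1.50e-13).

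The levels of the genes beside the RAG genes and *DNTT* varied. *IFTAP*, which overlaps annotated exons of *RAG2* on the other strand, was at 1.91 to 8.03 CPM in the controls of the 3 lines, and *TRAF6* and *PRR5L*, also near the RAG genes, at 24.6 to 39.6 and 19.0 to 67.2 CPM. Near *DNTT*, *OPALIN* and *TLL2* were at no more than 3.51 CPM and *TM9SF3* at 313 to 470 CPM. None of the neighbours tested passed the siRNA test in a line with all samples, 5 in REH, 6 in 697 and 5 in RCH-ACV, since *TLL2* was too low to be tested in REH and RCH-ACV. *PRR5L* passed with 1 effect for the 3 lines (-0.18, edgeR adjusted p = 0.00561) and in RCH-ACV without replicate 3 with *SOX11* siRNA (-0.24, adjusted p = 0.00575).

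Over the 18 samples log2 CPM of *RAG1* and *RAG2* had a Pearson r of 0.97, and *DNTT* had an r of -0.771 with *RAG1* and -0.706 with *RAG2*. These are descriptions, since the 18 points fall into 3 clusters by cell line and share each line's libraries. By the same measure over 13344 genes, the genes most like *RAG1* were *TMEM170B*, *PCDHB14*, *VPS35L*, a transcript without a symbol here (NR_001557) and *ELK3* (r 0.9925 to 0.9903). Those most like *RAG2* were *SETBP1*, *ASF1A*, *DYNLT3*, *AGGF1* and *ZNF141* (0.9895 to 0.9874), and those most like *DNTT* were *FAM217B*, *CHSY1*, *PTPN12*, *ZNF100* and *KIF15* (0.9631 to 0.9607). *RAG2* was not among the 5 genes most like *RAG1*.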

How the data were processed

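The data were 18 RNA-seq libraries of REH, 697 and RCH-ACV, with 3 replicates of each siRNA per line. Per the study's methods, reads were trimmed and filtered, aligned to hg19 with STAR (2.5.3a in the submitters' processing notes) and counted with HOMER for RefSeq transcripts. Raw read counts that had not been normalized were deposited by the authors as 1 table per line. The tables hold no transcript lengths, although these had been planned for, so RPKM were computed from the canonical transcripts of GENCODE lifted to hg19, which also gave the gene positions and the promoter starts.

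Symbols were matched for 98.0% of 50678 transcripts and 99.0% of counts. The members and the gene lists were chosen with earlier results of these data known. Each line was fitted with edgeR 4.0.16 (R 4.3.3, limma 3.58.1): TMM scaling, filterByExpr by group and the two-sided quasi-likelihood F-test, with Benjamini-Hochberg adjusted p-values over all genes tested and a threshold of 0.05. Controls were fitted over 9 samples with a contrast for each pair of lines, and the interaction and the common effect over 18 samples with cell line as a covariate. The fits were tested on simulated data.

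Named were the 3 genes, every listed gene that passed in a line, the 3 listed genes of cutting, joining, regulation or protein partners that differed most in each pair of control groups, the neighbouring genes, *POLM* and *POLL* as relatives of *DNTT*, *SOX11*, and for each of the 3 genes the 5 most alike among genes averaging 1 CPM or more. *HMGB1*, *HMGB2*, *PAXX* and *VPREB1* were added after their values were seen, and some items are not reported here. Replicate numbers are in the labels, but the deviations of same-numbered samples correlated at -0.115 to 0.114, so the numbers were not taken as pairs. The tests were repeated with RLE size factors, with library size alone, without the low-count filter or with 1 that asked for CPM above 1 in 3 samples, with the Wald test of DESeq2 1.42.0, 1 fit over the 18 samples, a replicate block, leaving out each sample and, added after seeing the data, edgeR's legacy quasi-likelihood method and fits without libraries that stood apart. Python 3.11.15 with pandas 2.3.3, scipy 1.17.1 and matplotlib 3.10.9 was used for the rest.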

Additional observations from a re-analysis of the deposited data

Results flagged for a closer look

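The effect of *SOX11* siRNA differed between the 3 cell lines for *RAG1* (edgeR interaction test, adjusted p = 0.0313) and, among the regulators, for *IKZF1* (adjusted p = 0.0126) and *SATB1* (adjusted p = 0.00107). The interaction of *RAG1* passed in 6 of the 18 fits with 1 sample left out, and it did not pass with DESeq2 (0.0681) or with a replicate block (0.0651). That of *IKZF1* passed in 15 of 18 and not with the block (0.126), and that of *SATB1* in 18 of 18. *RAG1* was 14.7% higher with *SOX11* siRNA in REH and 24.8% lower in 697. In both lines the 3 samples of each siRNA did not overlap (p = 0.1 by the exact permutation test, the smallest possible). The share of all genes with such groups was not computed. *SATB1* was at a log2 fold change of -0.60 in RCH-ACV against -0.085 in REH and 0.029 in 697. The groups of 3 samples were too small for a test of single outlying samples.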

How the results depend on the processing

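The directions of *RAG1* and *DNTT* held under every alternative in each comparison where they passed. In REH 595 genes passed, against 315 with DESeq2 and 242 in 1 fit over the 18 samples, where *RAG1* did not pass (0.19). In 697 68 genes passed, against 193 in that fit (*DNTT* -0.27, adjusted p = 0.0586) and 198 without both libraries that stood apart. In RCH-ACV 991 passed, against 577 with DESeq2 (*DNTT* -0.37, adjusted p = 0.180). The interaction of *RAG1* had an adjusted p of 0.0681 with DESeq2. Between the controls of 697 and RCH-ACV *DNTT* was at 0.075 with library size alone, where the median of all genes was -0.0746 against -0.0125 with TMM. Between REH and 697 that scaling moved the median from 0.0189 to 0.153.

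Same-numbered samples were not taken as pairs. With the replicate number as a block, 29 genes passed in 697 (*RAG1* -0.41, adjusted p = 0.171, *DNTT* -0.27, adjusted p = 0.101), 45 passed the interaction (*RAG1* 0.0651) and 823 the common effect.

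With single samples left out, the counts were 299 to 521 in REH, 25 to 71 in 697, 386 to 2518 in RCH-ACV and 57 to 185 for the interaction. *RAG1* ranged from -0.47 to -0.34 in 697 and from -0.39 to -0.12 in RCH-ACV, and its interaction p from 4.96e-06 to 0.118. *DNTT* ranged from -0.31 to -0.23 in 697, from -0.52 to -0.28 in RCH-ACV and from 0.085 to 0.17 between the controls of 697 and RCH-ACV, with interaction p from 0.000216 to 0.456. *RAG2* ranged from 0.087 to 0.17 in REH and from 0.12 to 0.20 between the controls of REH and RCH-ACV. *ERG* in REH ranged from -0.095 to 0.0031. Each sample held at least 809 counts of each of the 3 genes, and each difference rests on 3 samples per group.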
